A study of Drosophila melanogaster with 2 samples.

Results

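The nuclear genes of the respiratory chain and ATP synthase were examined for binding of MTF-1 in Drosophila melanogaster embryos. The members were the protein-coding genes whose symbol begins with ND-, UQCR-, COX and a digit, or ATPsyn in the Ensembl annotation of BDGP6.54, an assembly with the coordinates of dm6. There were 80 such genes of 13945 protein-coding genes on the main chromosomes, with 40 in complex I, 9 in complex III, 16 in complex IV and 15 in complex V. All carry names of structural subunits, and 21 of them have a symbol that ends in L, or in L and a digit, by which the annotation marks a paralogue of another subunit gene; the other 59 are called main subunit genes here.

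Chromatin immunoprecipitation with sequencing (ChIP-seq) was performed on whole embryos, aged 0 to 24 h and of mixed sex, from a fly line that stably carries MTF-1 fused at its C terminus to GFP. The antibody label names MTF-1. There was 1 group of 2 biological replicates, numbered 2 and 4, from 1 fly line. Whether they came from separate crosses is not stated, so differences between them may be technical. No untagged group was analysed here. The free-text label of both samples calls them input controls while their titles name a transcription factor ChIP-seq assay; they were read as immunoprecipitates. Whole embryos mix many cell types, so weak binding in all cells and strong binding in few cells cannot be told apart.

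The respiratory chain passes electrons from NADH through complex I, or from succinate through complex II, to coenzyme Q, then through complex III and cytochrome c to oxygen at complex IV. The protons pumped on the way drive ATP synthase, complex V. Most subunits are encoded in the nucleus and a few in mitochondrial DNA, so the 2 genomes must supply matching parts. Several subunits hold copper, iron or iron-sulphur clusters, and MTF-1 is a zinc-finger transcription factor of metal homeostasis that recognises the metal response element (MRE).

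In the thresholded peak list, 15 of the 80 genes (18.8%) had a summit within 1 kb of a transcript start site (TSS), against 17.0% of all protein-coding genes. The share of members was therefore close to the background, and the list gives no result about the members as a group. By complex, ATP synthase had a peak at 4 of 15 genes (26.7%), complex IV at 4 of 16, complex III at 2 of 9 (22.2%) and complex I at 5 of 40 (12.5%). A single gene is worth 6.67, 6.25, 11.1 and 2.50 percentage points in these complexes, and the differences between them were not tested.

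The peaks that members had were weak ones within the list. Signal values are the authors' own, given per peak on an unstated scale, and are used only within 1 list, with rank 1 the strongest. The 15 strongest peaks of the bound members ranked from 381 to 3568 of 3587, with a median rank of 2582, against a median of 1572 over the 2368 protein-coding genes with a peak, whose middle 50% lay between ranks 711 and 2516. Only 3 of the 15 fell among the 1793 strongest peaks, against 56.2% of all genes with a peak. The median signal was 126 for the bound members and 154 for the whole list, which ran from 104.02 to 16205.

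Short stretches of genome show what the strongest member peak of each complex looks like, and UQCR-C1 is added because its window holds the MRE core at its summit. Each is read from the plus strand of the Release 6 genome and centred on the summit. Capitals mark the MRE core (TGCACNC or TGCGCNC) and TATAAA on either strand; the other motifs described further on did not occur in these windows.

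ND-ASHI, chrX:6679283-6679483: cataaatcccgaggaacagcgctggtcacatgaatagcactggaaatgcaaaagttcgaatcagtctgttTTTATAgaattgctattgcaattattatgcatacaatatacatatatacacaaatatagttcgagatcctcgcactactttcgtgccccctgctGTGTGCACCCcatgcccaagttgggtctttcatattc
UQCR-6.4L, chr3L:16567697-16567797: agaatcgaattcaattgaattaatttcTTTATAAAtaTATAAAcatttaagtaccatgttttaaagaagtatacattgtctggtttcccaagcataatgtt
COX7AL2, chr2L:2193590-2193690: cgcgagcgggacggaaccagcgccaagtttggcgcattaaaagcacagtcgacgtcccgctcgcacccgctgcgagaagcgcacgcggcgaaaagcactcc
ATPsynE, chr3R:14327870-14327970: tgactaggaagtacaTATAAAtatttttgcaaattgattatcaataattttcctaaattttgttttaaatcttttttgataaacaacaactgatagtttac
UQCR-C1, chr3R:14890161-14890261: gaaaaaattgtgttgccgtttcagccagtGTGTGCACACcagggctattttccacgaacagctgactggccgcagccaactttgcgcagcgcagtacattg

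These windows have little in common beyond a summit. GC content within 50 bp of the summit was 65.3% at COX7AL2, 52.5% at UQCR-C1, 28.7% at ND-ASHI, 23.8% at UQCR-6.4L and 20.8% at ATPsynE. The UQCR-C1 window holds the core TGCACAC on both strands in overlapping copies, which together spell the palindrome GTGTGCACAC. The ND-ASHI window, shown wider, holds overlapping copies of TGCACAC and TGCACCC on opposite strands, 67 and 70 bp from the summit. The COX7AL2 window holds none of the motifs searched.

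Complex I, the NADH dehydrogenase, had 5 bound genes. ND-ASHI (FBgn0029888), a gene for an accessory subunit, stood apart from every other member. Its peak at chrX:6679270-6679473 had a signal of 347, which was 2.26 times the list median and gave it rank 381 in the thresholded list. It ranked 292 in replicate 2 and 480 in replicate 4, so both replicates placed it well inside their strongest regions. The summit lay 265 bp upstream of the ND-ASHI start and 257 bp from a start of Fum1, the divergent gene for fumarase of the citrate cycle, in an intron of a longer Fum1 transcript. The list alone does not assign the peak to either gene.

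The other 4 complex I genes had weaker peaks than ND-ASHI. ND-MWFE, an accessory subunit gene, had rank 2043 (signal 143), with rank 7963 in replicate 2 and 1018 in replicate 4. Among the 13 bound members with a region within 1 kb in both replicates, that was the widest gap in rank, at 7.82-fold. The region of replicate 2 did not overlap the thresholded peak of ND-MWFE. ND-42, an accessory subunit gene, had rank 2741 (signal 122), with rank 1668 in replicate 2 and 2388 in replicate 4, so both replicates placed it higher than the pooled list did. ND-51 (FBgn0031771) encodes the flavin-binding subunit at which NADH is oxidised, and was the only bound gene of the 7 nuclear-encoded core subunits in complex I. It had rank 3548 (signal 105) and rank 1862 in replicate 4, while no region of replicate 2 lay within 1 kb or overlapped the peak. ND-13B, an accessory subunit gene, had the lowest peak of all members, at rank 3568 (signal 104), with rank 9196 in replicate 2 and 3878 in replicate 4. Replicate 4 thus ranked ND-MWFE, ND-51 and ND-13B nearer the top than replicate 2 did, and ND-ASHI and ND-42 the reverse.

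Complex III, the cytochrome c reductase, had 2 bound genes. UQCR-C1 (FBgn0038271) encodes a core protein of the complex and had rank 3126 (signal 112) at chr3R:14890039-14890382. It ranked 1546 in replicate 2 and 7135 in replicate 4, a 4.62-fold gap in rank. Its summit lay 20 bp from the UQCR-C1 start and 6 bp from that of CycC, the divergent cyclin C gene, and the 2 starts are 26 bp apart. The overlapping MRE cores lie 15 and 18 bp from the summit. UQCR-6.4L (FBgn0262842), a paralogue of the gene for a small subunit, had rank 2582 (signal 126). The summit, in an intron of Mipp1, lay 997 bp downstream of the UQCR-6.4L start, just inside the limit of the rule. It was beyond the 3′ end of UQCR-6.4L. UQCR-6.4L ranked 2160 in replicate 4. In replicate 2 the region that overlapped its peak, of rank 6291, had its own summit beyond 1 kb.

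Complex IV, the cytochrome c oxidase, whose catalytic subunits hold copper, had 4 bound genes. COX7AL2 (FBgn0085201), a paralogue of a small subunit gene, had rank 1611 (signal 162), with rank 2515 in replicate 2 and 1504 in replicate 4, and a weaker second peak of rank 3452. Its summits lay 630 and 911 bp upstream of different starts of the gene, the stronger one in an intron and the other between genes, and no other start lay within 1 kb of either. COX5A had rank 1916 (signal 147), with rank 6809 in replicate 2 and 1475 in replicate 4. COX5B had rank 2789 (signal 120), with rank 4553 in replicate 2 and 4038 in replicate 4, both beyond the 3587 strongest regions of their list. COX7C had rank 3259 (signal 110), with rank 3113 in replicate 2 and 5475 in replicate 4. These last 3 genes encode nuclear subunits around the catalytic core, and each summit was within 300 bp of the member's start.

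ATP synthase had 4 bound genes, and only ATPsynC had its strongest summit close to its own start. ATPsynE (FBgn0038224), a gene for a small membrane subunit, had rank 1597 (signal 163), with rank 1786 in replicate 2 and 1237 in replicate 4, the second-best placed member in the thresholded list. That summit lay 852 bp downstream of an ATPsynE start and 131 bp from the start of spn-B, a RecA-family recombination gene; a further peak of rank 1915 (signal 147) lay 19 bp from the ATPsynE start. ATPsynD, a gene for a subunit of the peripheral stalk, had rank 2385 (signal 130), with rank 900 in replicate 2 and 4245 in replicate 4. Its summit was 764 bp away, next to the start of cdi at 34 bp. ATPsynCF6, a gene for coupling factor 6, had rank 2451 (signal 129), with rank 3873 in replicate 2 and 7568 in replicate 4. Its summit was 962 bp away and nearer to Sec13, a coat protein gene, at 463 bp; in replicate 4 the overlapping region ranked 2374 but had its summit beyond 1 kb. ATPsynC (FBgn0039830), the gene for the ring subunit that turns with the proton flow, had rank 3314 (signal 109), with rank 3081 in replicate 2 and 5378 in replicate 4, and its summit fell in a 5′ untranslated exon, 32 bp downstream of an inner start of the gene.

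**Figure D1:**
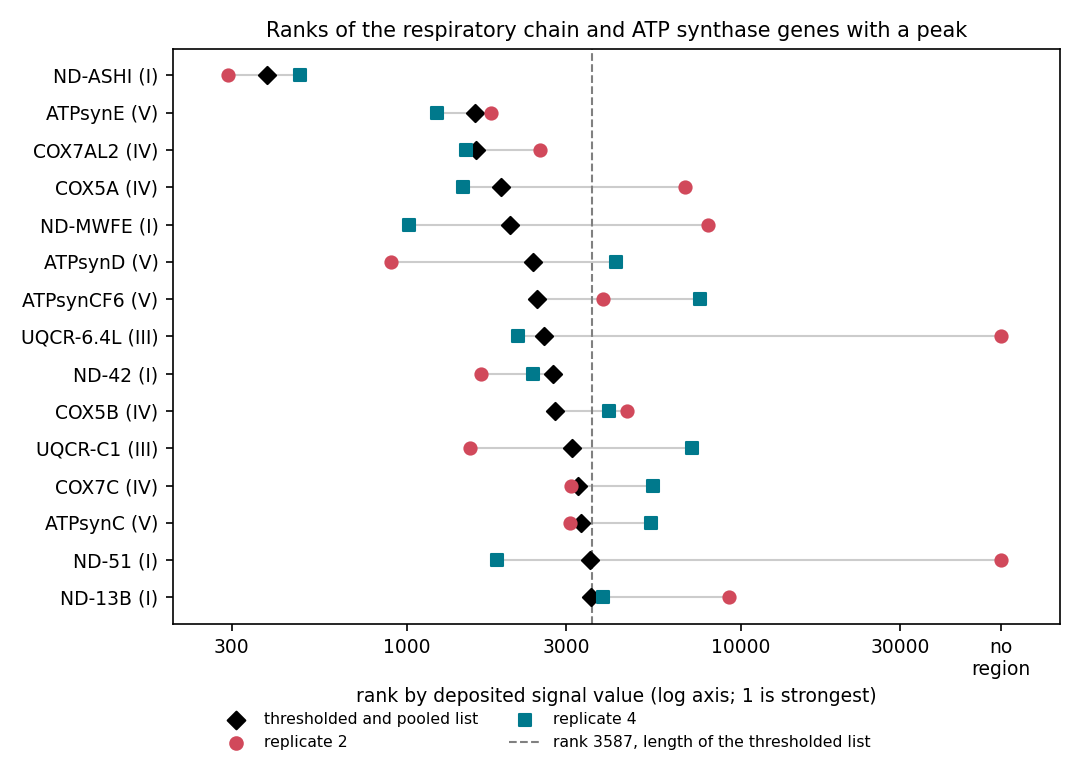
Rank by deposited signal value (log axis, 1 is strongest) of the best region within 1 kb of each of the 15 members with a peak. Diamonds give the thresholded and pooled lists, circles replicate 2, squares replicate 4, and the dashed line rank 3587; ND-ASHI is the strongest in all lists, and ND-51 and UQCR-6.4L have no such region in replicate 2.

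The replicates placed most member peaks on different sides of the cut-off. The thresholded list holds exactly the 3587 strongest regions of the pooled list, all 3587 of them shared, so a peak needed no given rank in a replicate to be in it. Among the 15 bound members, 4 (26.7%) were also reached by the 3587 strongest regions of both replicates, namely ND-ASHI, ATPsynE, COX7AL2 and ND-42. The same held for 65.0% of all genes with a peak. The shares in this comparison were not matched for rank, and the bound members' peaks were weaker, with a median rank of 2582 against 1572. A further 4 members (ATPsynC, ATPsynD, COX7C and UQCR-C1) were reached in replicate 2 only, where the share over all genes with a peak was 12.3%. Another 4 (COX5A, ND-51, ND-MWFE and UQCR-6.4L) were reached in replicate 4 only, against 18.8% of all genes with a peak. ATPsynCF6, COX5B and ND-13B, 3 of the 15, were reached in neither replicate, against 3.97% of all genes with a peak. For ATPsynCF6 this rests on the 1 kb limit, since the overlapping region of replicate 4 ranked 2374 with its summit beyond that limit. The ranks of the 13 bound members with a region within 1 kb in both replicates differed 1.76-fold in the median, and those of all 2301 such genes differed 2.07-fold. These medians leave out members with no region in a replicate. Replicate 2 had one for 13 of the 15 bound members, while 51 of all 2368 genes with a peak (2.15%) had none there. For ND-MWFE and ATPsynCF6 the ratio uses a region that does not overlap the peak in 1 replicate. GC content at the summit ran from 28.7% to 52.5% (median 35.6%) in the 7 members ranked nearer the top in replicate 2, and from 20.8% to 65.3% (median 36.2%) in the 8 ranked nearer the top in replicate 4. The groups overlapped over most of their range. The 1 kb limit placed ATPsynCF6 with replicate 2, although its overlapping regions ranked 3873 in replicate 2 and 2374 in replicate 4. ND-51 and UQCR-6.4L, with no region of replicate 2 within 1 kb, were placed with replicate 4.

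Counting each replicate alone gave fewer members. The 3587 strongest regions of replicate 2 reached 11 of the 80 genes (13.8%), against 16.4% of all protein-coding genes. Those of replicate 4 reached 9 (11.2%), against 16.8%. Members that entered this way were COX6AL, ND-15 and ND-39 in replicate 2 and COX7B in replicate 4. The count changed most for ATP synthase, with 3 of 15 genes in replicate 2 and 1 of 15 in replicate 4. Complexes I and IV had 4 and 3 genes in each, but not the same genes. In complex I only ND-42 and ND-ASHI were reached in both replicates, and in complex IV only COX7AL2.

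**Figure D2:**
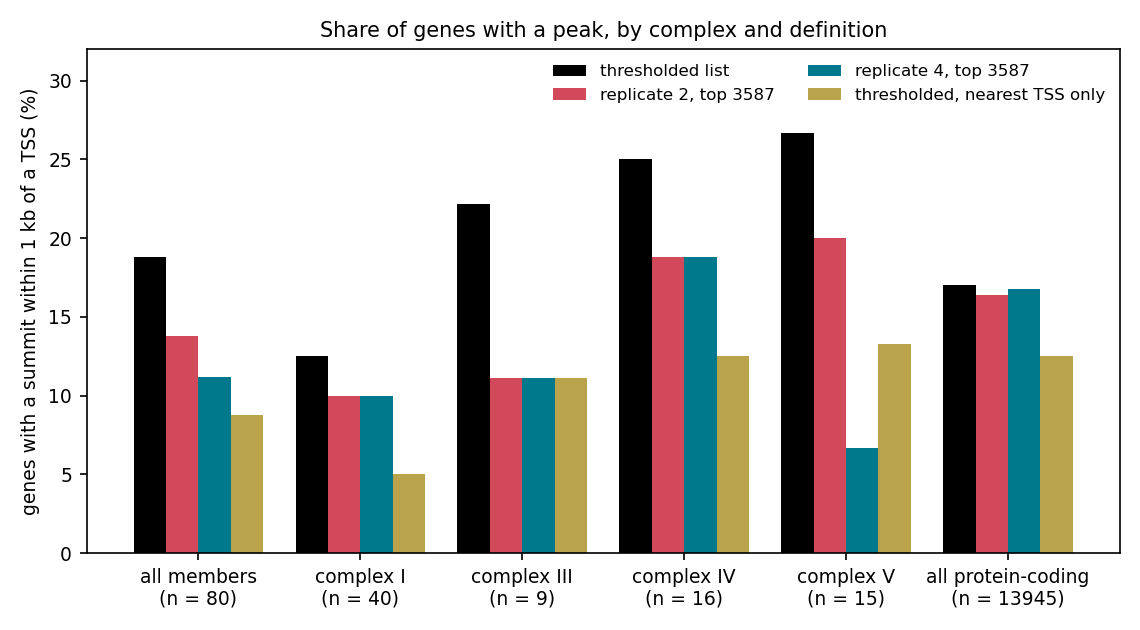
Share of genes (%) with a summit within 1 kb of a transcript start, for all members, each complex and all protein-coding genes, under 4 definitions of a peak. Members reach 18.8% in the thresholded list, 13.8% and 11.2% in single replicates and 8.75% by nearest start, beside 17.0%, 16.4%, 16.8% and 12.5% of all protein-coding genes.

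Many of the peaks sit at starts shared with a neighbour. At 12 of the 15 bound members (80.0%) the strongest peak also lay within 1 kb of the start of another protein-coding gene, against 54.1% of all genes with a peak. The member had the nearest start in 6 of 15 (40.0%), against 70.8% of all genes with a peak. With each peak given only to its nearest start, 7 members (8.75%) had one, against 12.5% of all protein-coding genes. In 7 of 15 members, against 805 of all 2368 genes with a peak, the summit fell between the member's start and that of a divergent neighbour. These were COX5A with glo, COX5B with IFT52, ND-42 with Cchl, ND-51 with CG13994, ND-ASHI with Fum1, ND-MWFE with TppII and UQCR-C1 with CycC. The COX5A start counted here is an inner one, and the summit lay in an intron of COX5A. That of ND-MWFE lay in an intron of TppII. Of these divergent neighbours, Fum1 and Cchl also serve mitochondria, since Fum1 encodes fumarase and Cchl the lyase that attaches haem to cytochrome c. How often the neighbours of other genes do so was not counted. ATPsynD starts 95 bp from mRpL55, a mitochondrial ribosomal protein gene, and its peak lay 669 bp from that start. The summit was upstream of the member's nearest start in 11 of 15 (73.3%), against 73.2% of all genes with a peak.

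**Figure D3:**
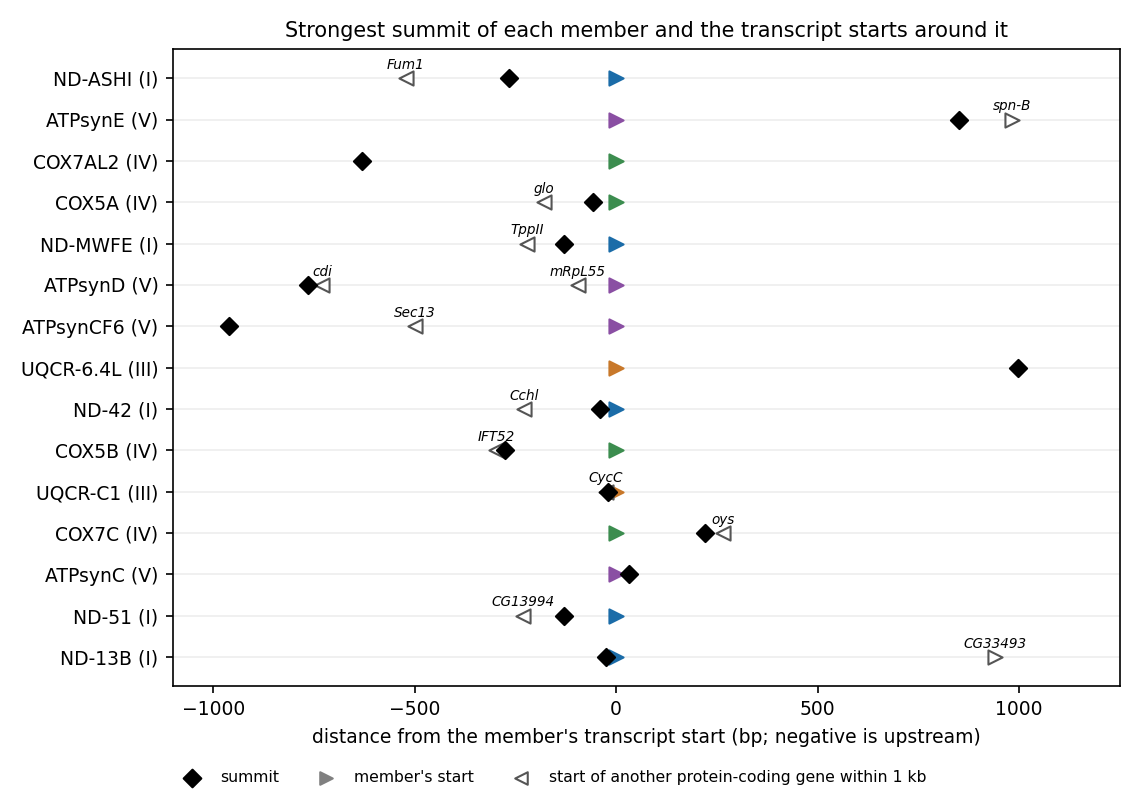
Position (bp) of the strongest summit of each bound member relative to the member's transcript start, drawn in the member's direction of transcription, with the starts of other protein-coding genes within 1 kb as open arrows pointing the way they are transcribed. The summits of UQCR-6.4L (997 bp) and ATPsynCF6 (962 bp) lie at the edge of the rule, and those of ND-13B (25 bp), UQCR-C1 (20 bp) and ATPsynC (32 bp) close to a start.

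The count moved with the width of the window. Within 500 bp, 11 members (13.8%) had a peak, against 14.3% of all protein-coding genes, the 4 lost being ATPsynCF6, ATPsynD, COX7AL2 and UQCR-6.4L. Within 5 kb, 34 members (42.5%) had a peak, against 33.3%. With only the outermost start of each gene the 15 members were kept (18.8%), against 15.2% of all protein-coding genes. Among the 1793 strongest peaks only ND-ASHI, ATPsynE and COX7AL2 remained, 3.75% of members against 9.54%. The nearest members outside the 1 kb limit were ND-13A and ND-39, with thresholded summits 1247 and 1265 bp from a start. Just outside the cut-off in rank were COX6B, whose best region ranked 4040 in the pooled list, and ATPsynF, at 4405.

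Of the 65 members without a peak, 28 had a weaker candidate region within 1 kb in the pooled list of 30000. In complex I they were 15 genes with pooled ranks from 4949 to 28400, led by ND-39 (4949), ND-MNLL (5865) and ND-15 (5993). In complex III they were 4 genes from rank 5643 to 25042, led by UQCR-Q (5643), UQCR-14 (5857) and UQCR-11L (12356). In complex IV they were 4 genes from 4040 to 8639, among them COX7B at 4576 and COX6AL at 5757. In ATP synthase they were 5 genes from 4405 to 25724, with ATPsynB at 7956 and ATPsyngamma, the rotor shaft gene, at 9024. COX7B and ATPsynF, like ND-MWFE, ranked far apart in the replicates, at 18787 in replicate 2 and 2954 in replicate 4 for COX7B, and at 27075 in replicate 2 and 3985 in replicate 4 for ATPsynF. Across all 80 members, 30 had a region within 1 kb in both replicate lists, and none of these differed by more than 10-fold in rank. Another 28 had one in 1 replicate list only, 13 in replicate 2 and 15 in replicate 4, and 22 had none in either. For these members, ND-51 among them, no such ratio could be formed.

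Counted over whole lists, 43 of the 80 members (53.8%) had a region within 1 kb in the pooled list, against 55.8% of all protein-coding genes. In replicate 2 the count was also 43 (53.8%), against 52.9%, and in replicate 4 it was 45 (56.2%), against 56.7%. In at least 1 of these 3 lists 59 members (73.8%) had a region, against 70.8%. The 21 members with none in any of them were 10 genes of complex I (ND-18, ND-20, ND-49, ND-49L, ND-51L2, ND-AGGG, ND-B12, ND-B14, ND-B17 and ND-MLRQ), UQCR-14L of complex III, 6 genes of complex IV (COX4L, COX5BL, COX6AL2, COX6CL, COX7A and COX7AL) and 4 of ATP synthase (ATPsynCF6L, ATPsynGL, ATPsynO and ATPsyndelta). ND-20 and ND-49 encode core subunits of complex I and ATPsynO a subunit of the stalk, so absence was not limited to minor subunits.

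**Figure D4:**
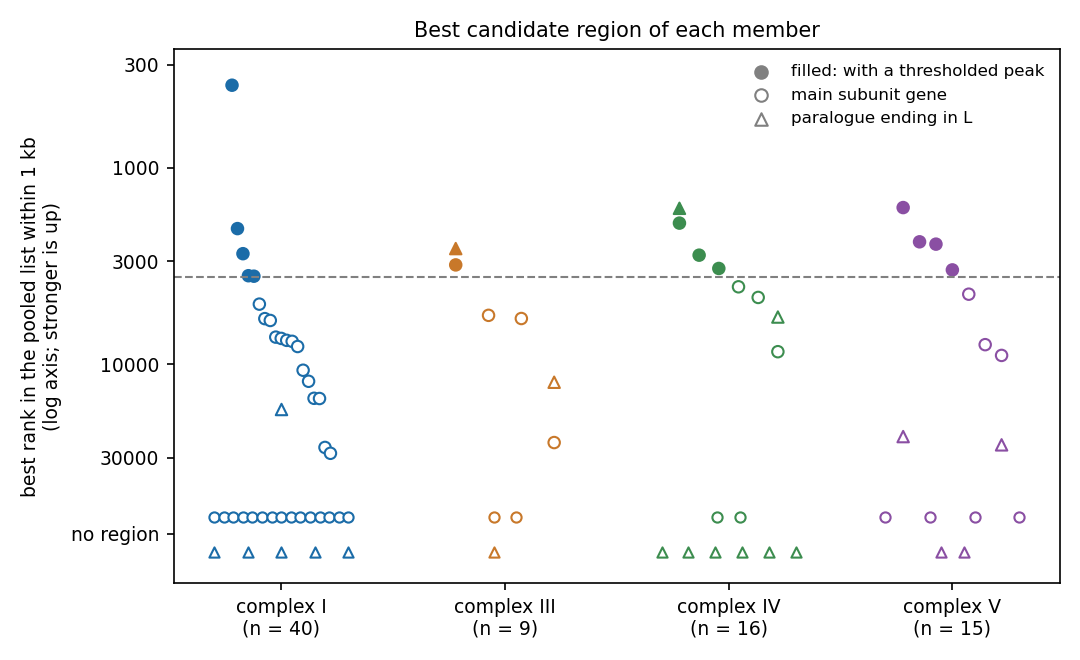
Best rank in the pooled list within 1 kb of each of the 80 members by complex (log axis, stronger is up; n is the number of genes). Circles are main subunit genes, triangles paralogues ending in L, filled symbols members with a thresholded peak, and the dashed line rank 3587; ND-ASHI at 381 stands alone above ATPsynE at 1597.

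A smaller share of paralogues than of main subunit genes had a region in these lists. In Drosophila, duplicated genes of the respiratory chain are often expressed mainly in the testis. Whether expression bears on these shares was not tested. Of the 21 paralogues 2 had a peak (9.52%), COX7AL2 and UQCR-6.4L, and neither peak lay within 500 bp of a start. Of the 59 main subunit genes 13 (22.0%) had a peak, against 17.0% of all protein-coding genes. No region in any list was found for 10 paralogues (47.6%), against 11 main subunit genes (18.6%) and 29.2% of all protein-coding genes. Number of starts differed alongside, since 90.5% of the paralogues and 45.8% of the main subunit genes have 1 annotated start, against 73.5% of all protein-coding genes. Its part in the difference was not tested.

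**Figure D5:**
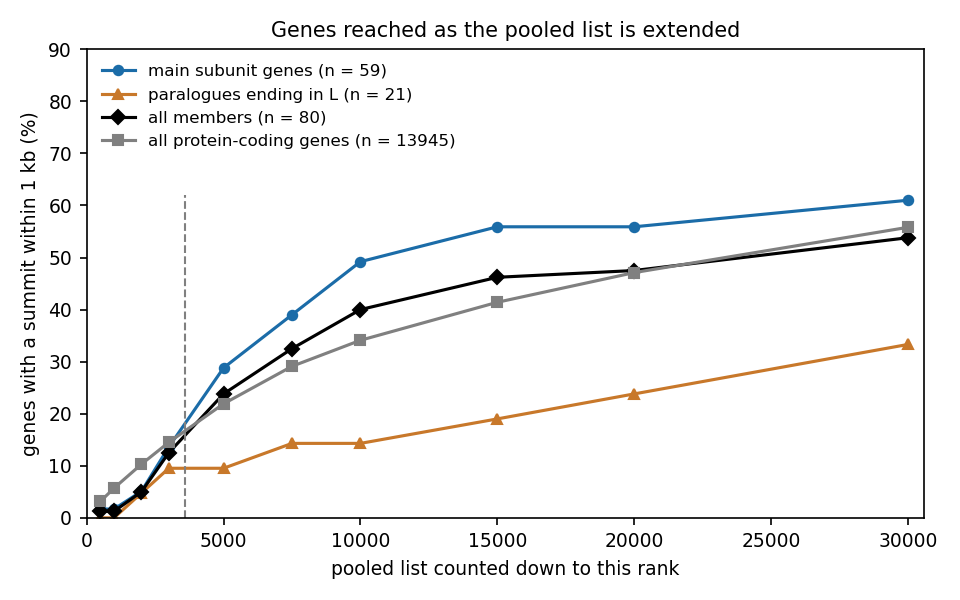
Share of genes (%) with a summit within 1 kb as the pooled list is counted from the strongest region down to a given rank, for main subunit genes, paralogues ending in L, all members and all protein-coding genes; the dashed line is rank 3587. Members start below all protein-coding genes, 1.25% against 5.71% down to rank 1000, stand above them at rank 5000, 23.8% against 21.9%, and end below them at rank 30000, 53.8% against 55.8%.

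The order of the curves in that plot turned with depth in the list. Down to rank 1000, 1 member (1.25%) had been reached, against 5.71% of all protein-coding genes. By rank 10000, 32 members (40.0%) had been reached, against 34.1%. The 59 main subunit genes stood at 49.2% at that rank and the paralogues at 14.3%. Down to rank 20000 the shares were 47.5% of members and 47.1% of all protein-coding genes, and over the whole list 53.8% and 55.8%. Members thus stood below the background among the strongest regions, above it at ranks 5000 and 10000 and below it again at the end of the list, with no test made.

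Motifs were counted within 50 bp of the strongest summit of each bound member. The MRE core occurred in 1 of 15 windows (6.67%), that of UQCR-C1, against 11.4% of all thresholded peaks and 12.6% of those within 1 kb of a protein-coding start. In windows 500 bp to the left and right of all thresholded summits it occurred in 8.48% and 8.78%. Within 100 bp it occurred at 4 members (26.7%), against 20.9% of all thresholded peaks, so the order of the shares turned with window width. Beside UQCR-C1 these were ND-ASHI, COX5B with TGCACAC centred 50 bp away, and ATPsynD with TGCACTC 57 bp away. TATAAA occurred in 5 of 15 windows (33.3%), against 15.0% of all thresholded peaks. The DRE (TATCGATA), the M1BP site (GGTCACAC), the GAGA site (GAGAG) and the nuclear respiratory gene (NRG) element described at Drosophila oxidative phosphorylation genes (TTACGTAA, TTACATAA, TTATATAA or TTATGTAA) occurred in 0 of the 15. Over all thresholded peaks their shares were 1.56%, 1.37%, 15.8% and 1.37%. All searches covered both strands; TATAAA can overlap the TTATATAA form of the NRG element, and MRE cores on opposite strands can overlap where the bases before TGCA also match.

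Promoters, taken as 250 bp before to 50 bp after the outermost start, were searched in the same way for all members. The MRE core occurred in 10 of 80 (12.5%), against 18.7% of all 13945 promoters. Complex IV held 6 of these 10 in its 16 genes (37.5%), complex I 3 of 40, complex III 1 of 9 and ATP synthase 0 of 15. Among bound members it occurred at COX5B, COX7AL2, COX7C and UQCR-C1, 4 of 15, and among unbound members at 6 of 65. The M1BP site occurred in 15 member promoters (18.8%), against 7.70% of all promoters, 14 of them at main subunit genes. TATAAA occurred in 43 (53.8%), against 45.8%. The DRE occurred in 9 (11.2%), against 9.36%, and in 0 of the 15 bound members. The NRG element occurred in 5 (6.25%), against 5.18%, all of them complex I genes (ND-30, ND-42, ND-49, ND-MNLL and ND-SGDH), of which ND-42 had a peak. GAGAG occurred in 17 (21.2%), against 29.7%. These matches describe letters in the windows and were not tested.

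Other genes of the pathway came from a list of 52 genes under other symbols. A peak within 1 kb was present at 17 of them (32.7%), against 17.0% of all protein-coding genes. The list was chosen with earlier results of these data known, so the share gives no independent result about the pathway. It was not tested, and several of the 17 peaks were nearer to another gene's start. Complex II, succinate dehydrogenase, had a peak at 0 of 6 genes, the best placed being SdhC at rank 3788 of the pooled list. Subunits of complexes III, IV and V with other names had a peak at 2 of 7, cype of complex IV at rank 3450, nearer to Ncoa6, and blw, the ATP synthase alpha subunit gene, at rank 3579. Both peaks were weaker than those of most bound members, and blw ranked below the weakest of them, ND-13B at 3568. Both cytochrome c genes had a peak, Cyt-c-d at rank 484 (replicate 2 rank 916, replicate 4 rank 374), nearer to the start of CG31808, and Cyt-c-p at rank 701 (replicate 2 rank 753, replicate 4 rank 625), with summits 397 and 872 bp from their starts.

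Some of the remaining peaks in this list were nearer to another gene's start. Coenzyme Q synthesis genes had a peak at 4 of 8, Coq2 at rank 5, Coq4 at rank 252 with CG32176 nearer, Coq7 at rank 1561 and Coq3 at rank 2409. The peak near Coq2 was 385 bp from its start and nearer to that of lncRNA:CR45215. Citrate cycle genes had a peak at 4 of 11, namely Idh3g at rank 313, Fum1 at rank 381, Ogdh at rank 1761 and kdn, the citrate synthase gene, at rank 2213. Assembly factor genes had a peak at 2 of 5, CIA30 at rank 188 with CG7601 nearer and Cchl at rank 2741 with ND-42 nearer, and pyruvate dehydrogenase genes at 1 of 3, Pdhb at rank 1850. Genes of mitochondrial DNA upkeep and regulators of mitochondrial genes had a peak at 2 of 10, mtSSB at rank 364 and srl, the fly PGC-1 gene, at rank 3190. Fum1 and Cchl share their peaks with ND-ASHI and ND-42, so those 2 are not separate from the members' own.

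By chromosome, 7 of 16 members on 3R (43.8%) had a peak, against 17.9% of all protein-coding genes there. The counts were 3 of 16 on 2L, against 16.7%, 2 of 19 on 3L, against 18.5%, 2 of 15 on 2R, against 17.1%, 1 of 12 on X, against 14.2%, and 0 of 2 on chromosome 4, where 4 of 80 protein-coding genes had a peak. These shares were looked at after the peaks were known and were not tested. Over the thresholded list as a whole, 96.0% of peaks overlapped some region of replicate 2 and 99.3% some region of replicate 4, and 70.7% and 83.5% overlapped those among the 3587 strongest. The −log10 q-values that the authors deposited were between 2.57 and 3.66 at the members' strongest peaks.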

How the data were processed

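Peak lists on dm6 were used for 2 ChIP-seq samples. Per the deposited read-me, the authors made a list of peaks and background for each replicate, another on the pooled alignments, and from these 3 a list thresholded by the irreproducible discovery rate (IDR). Aligner, peak caller, IDR threshold and read numbers: not given in the sources used here; depth is therefore unknown. The signal value and the −log10 q-value of each region are the authors' deposited values; signal was ranked within each list only.

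Ensembl release 115 (BDGP6.54) supplied the gene models, and sequence came from the RefSeq copy of the same assembly; 0 regions lay beyond a chromosome end. A gene was counted as having a peak where a summit (region start plus summit offset) lay within 1000 bp of any of its TSSs. Shares of members are set beside those of all 13945 protein-coding genes, with no test, since there is 1 group and the genes are not replicates. The members and the gene lists were chosen with earlier results of these data known. ND-MNLL, whose symbol ends in L, was kept as a main subunit gene because the L there is part of the subunit's own name. Bound members were all named; of the unbound, the up to 3 best placed in the pooled list per complex, those in no list, and those over 10-fold apart in rank between replicates were to be named. The placing of summits and the motif search were tested on simulated data. COX7B and ATPsynF were singled out for their replicate ranks after those were seen. Python 3.11.15, numpy 2.4.6 and pandas 2.3.3 were used.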

Additional observations from a re-analysis of the deposited data

How the results depend on the processing

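The count of 15 members with a peak was 11 within 500 bp, 15 with the outermost start only, 15 in the same number of strongest pooled regions and 13 without paralogues. It was 34 within 5 kb, 7 by nearest start and 3 among the 1793 strongest peaks. Leaving out a replicate gave 9 (without replicate 2) to 11 (without replicate 4). Within 5 kb, complex I had 18 and complex IV 7 genes with a peak. Within 500 bp complex III had 1 and complex V 2. By nearest start the counts were 2 in complex I, 1 in complex III, 2 in complex IV and 2 in complex V, and among the 1793 strongest peaks 1, 0, 1 and 1. Without a replicate, complex III had 1 in each case and complex V from 1 to 3. Without paralogues complex III had 1. MRE cores at member summits numbered 1 within 50 bp, 4 within 100 bp, and 0 and 2 in windows 500 bp to the left and right. Taking the overlapping region instead of the best within 1 kb placed ATPsynCF6 at rank 2374 in replicate 4, against 7568. The causes were not tested. With 1 group, unknown depth and at most 40 genes in a complex, no difference between complexes can be told from the loss or gain of a few peaks. No paired analysis was possible because there is only 1 group.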
